A study of Mus musculus with 10 samples.

Results

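The 39 genes described here encode the liver's machinery for burning fatty acids, an enzyme of ketone body metabolism, the nuclear receptor PPARA and genes known as its targets. They were chosen by name, as rows of both liver count tables, and all 39 were found among the 55487 gene identifiers of each table. The genes fell into 9 roles: the receptor Ppara, 5 genes of acyl-CoA activation and the carnitine shuttle, 9 enzymes of mitochondrial beta-oxidation, 5 auxiliary enzymes for unsaturated chains, 4 peroxisomal enzymes, the ketone body enzyme Bdh1, 5 omega-hydroxylases of the Cyp4a family, 4 acyl-CoA thioesterases of the Acot family, and 5 other genes linked to PPARA.

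RNA was measured by sequencing of polyT-selected transcripts from whole regenerating liver of mice aged 8 weeks, of the strain C57BL/6 in the diet and C57BL/6J in the inhibitor experiment. Partial hepatectomy (PHx), in which surgeons take out the larger part of the organ and the rest grows back, had been done on every mouse. The diet experiment set 3 mice on a high-fat diet (HFD), given over the 7 days up to PHx, against 3 mice on a standard chow diet, and liver was taken 40 hours after surgery. In the inhibitor experiment, 4 libraries from mice given SSO at 40 mg/kg 1 day before PHx were compared with 4 libraries from mice given its solvent as vehicle, and liver was taken 48 hours after surgery. SSO is not spelled out in the labels; the abbreviation commonly stands for sulfosuccinimidyl oleate, which blocks fatty acid uptake through CD36. No group carried an engineered allele, and no library without PHx was compared. Nothing in the labels says that the 4 libraries of an inhibitor group came from separate animals, and p-values of that experiment then measure only how far these libraries lie apart, which may be technical.

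Fatty acids enter oxidation as acyl-CoA, cross the mitochondrial membranes bound to carnitine, and are then shortened in repeated rounds of dehydrogenation, hydration, a second dehydrogenation and thiolysis. The liver turns much of the resulting acetyl-CoA into ketone bodies during fasting, while very long chains begin their breakdown in peroxisomes and a side route in the endoplasmic reticulum starts from the omega end of the chain. PPARA is a receptor for fatty acids and their derivatives. It binds DNA as a heterodimer with RXR and induces genes of all these routes in hepatocytes, most of all in fasting, and Cyp4a10, Cyp4a14, Acot1, Pdk4, Fgf21 and Angptl4 are widely used as readouts of its activity in mouse liver.

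Diet libraries held 31.9 to 39.9 M counts each, and inhibitor libraries 25.2 to 30.4 M. Levels are given in counts per 1000000 (CPM) after TMM scaling of library sizes, and 3 counts, the level a count of 0 allows, came to 0.0769 to 0.136 CPM; such limits cover counting error only. The tissue label was borne out by the markers: 7 hepatocyte genes summed to 69386 to 108422 CPM in every library, while a list of 6 adipocyte genes summed to at most 0.246 CPM in any library. The protocols describe male mice, but in the inhibitor experiment the library levels of Xist, the RNA of the inactive X chromosome, were 698 to 1772 CPM and 4 Y-linked genes had no count in any of the 8 libraries. High Xist without Y-linked counts is the pattern of female tissue, so the male label was not borne out for these libraries. In the diet experiment the same 4 Y-linked genes were all detected, and Xist was at 0 in the chow mean and 0.43 CPM in the HFD mean. Vehicle libraries differed from one another in cell markers: a list of 5 recruited monocyte genes summed to 157 CPM in vehicle 1 and 191 CPM in vehicle 3, against 6.40 and 14.7 CPM in vehicle 2 and 4 and 7.62 to 10.3 CPM in SSO libraries. The lists of 6 stellate cell and 5 cholangiocyte genes were likewise highest in vehicle 1 and 3, at 443 and 396 CPM against 138 to 247 CPM elsewhere, and at 134 and 163 CPM against 33.1 to 44.3 CPM elsewhere. None of the genes of these 3 lists was called. All 4 monocyte genes tested had an unadjusted p under 0.05 in edgeR's quasi-likelihood test, against 20.5% of all genes. Their median log2 fold change, SSO over vehicle, was -2.86, and their smallest adjusted p was 0.112. Kupffer cell genes summed to 412 and 311 CPM in vehicle 1 and 3 and 83.9 to 288 CPM elsewhere. Neutrophil genes summed to 12.7 and 16.8 CPM in vehicle 1 and 3 and 0.377 to 7.76 CPM elsewhere. The share of mitochondrially encoded transcripts also differed, from 4.99% in vehicle 1 to 22.5% in vehicle 2, and was 15.2% to 17.6% under SSO. For the inhibitor experiment, values without vehicle 1 and vehicle 3 are therefore given for the members' counts and median, for the members whose groups did not overlap and several others, and for the called pathway genes. In whole tissue, fewer cells of a type and less RNA per cell cannot be told apart.

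Acot1 to Acot4, the acyl-CoA thioesterases that release free fatty acids from acyl-CoA, lie side by side on chromosome 12 of GRCm38, all on the plus strand: Acot2 at chr12:83987861-83993873, Acot1 at chr12:84009490-84018371, Acot4 at chr12:84038379-84048601 and Acot3 at chr12:84052144-84060402. They are shown because near-identical copies can share reads, which bears on the levels given below for each of them. The same aligned 60-base coding stretch is printed for each, 5′ to 3′, from the GENCODE M21 transcripts, with capitals marking bases that differ from Acot1. It was picked as the gap-free stretch in which Acot2 differs most from Acot1, so the 2 genes are more alike elsewhere.
Acot1: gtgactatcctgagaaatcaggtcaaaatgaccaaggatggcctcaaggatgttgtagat
Acot2: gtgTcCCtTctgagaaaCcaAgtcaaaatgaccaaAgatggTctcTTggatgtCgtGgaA
Acot3: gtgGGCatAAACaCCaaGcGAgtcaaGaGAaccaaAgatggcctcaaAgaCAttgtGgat
Acot4: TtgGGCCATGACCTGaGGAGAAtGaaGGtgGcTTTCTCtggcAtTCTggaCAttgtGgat
In this stretch 13, 20 and 36 bases of Acot2, Acot3 and Acot4 differed from Acot1. Over the whole aligned coding sequence Acot1 and Acot2 shared 95.2% of 1239 bases, against 83.9% for Acot1 and Acot3 and 72.8% for Acot1 and Acot4. Of all 100-base windows of the coding transcripts, 21.9% of Acot1, 17.1% of Acot2, 16.6% of Acot3 and 8.85% of Acot4 also occurred in another gene. How the counting treated reads that fit several genes is not given in the sources used here, so levels of the Acot genes are uncertain to that extent. The same holds for Hadhb, with 52.8% of windows shared with other gene models, Cyp4a12a with 35.8%, Acaa1b with 30.5%, Acaa1a with 21.6%, Cyp4a32 with 20.1% and Cyp4a10 with 12.7%.

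The promoters of the members were also searched for the direct repeat that PPARA and RXR bind. RefSeq promoter windows on GRCm38.p6, from 250 bases before to 50 bases after a start, were at hand for 29 of the 39 genes and gave 32 windows; Crat, Acaa2, Decr1, Hsd17b4, Cyp4a10, Cyp4a12a, Cyp4a14, Cyp4a31, Vnn1 and Angptl4 had none. The motif AGGNCANAGGNCA on either strand was found in 0 of the 32 windows, and in 125 of 32851 windows of all genes, or 0.381%. Its half-site AGGTCA, which overlaps the full motif by construction, stood in 7 of the 32 windows, or 21.9%, against 16.3% of all windows. No match says only that these letters are not in these windows. At a share of 0.381%, 32 windows would seldom hold a match, so the search cannot bear on why members moved together. Of 68 other genes of the pathway listed for comparison, 53 had windows, 74 in all, and 1 of these, or 1.35%, held the full motif, that of Fabp1, which encodes the liver fatty acid binding protein. It is shown, from chr6:71199782-71199854 on the plus strand, as an example of the arrangement, with the 13 matched bases, which read as the motif on the minus strand, in capitals at chr6:71199812-71199824. They lie 67 to 55 bases before the RefSeq start on which the window is placed; the GENCODE M21 gene start, at 71199827, lies nearer to them.
Fabp1: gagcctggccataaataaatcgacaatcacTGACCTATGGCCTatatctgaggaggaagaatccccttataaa

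Per kilobase of exon, the highest member in both experiments was Acaa2, the mitochondrial thiolase that releases acetyl-CoA in the last step of each round. Its level was 733 ± 101 CPM per kb in chow and 616 ± 87.1 in HFD livers (SD, n = 3), and 608 ± 178 in vehicle and 616 ± 44.3 in SSO libraries (SD, n = 4). In chow the next were Cyp4a14 at 259 ± 300, Cyp4a10 at 181 ± 169, Acaa1b at 136 ± 90.6 and Hsd17b4 at 133 ± 13.7 CPM per kb, neighbours whose means lay closer together than their spread. The same order began differently in vehicle, with Acaa1b at 358 ± 259, Cyp4a14 at 227 ± 77.4 and Cyp4a10 at 160 ± 80.6 CPM per kb, again within their spread. The lowest members per kilobase were Fgf21 at 2.09 ± 2.99, Acot2 at 2.19 ± 1.31, Acot3 at 2.63 ± 4.10 and Pdk4 at 2.65 ± 1.11 CPM per kb in chow. The tables of the 2 experiments were counted and scaled separately, and levels were not tested across them.

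The diet experiment asked how a week of high-fat feeding before surgery alters the regenerating liver. All 39 members passed the filter on low counts in both experiments. In this comparison no member was called at an adjusted p under 0.05 in edgeR's quasi-likelihood test, 0 of 39 higher and 0 of 39 lower, against 2.32% of the 15589 genes tested, 1.60% called higher and 0.718% called lower. DESeq2, which gave no adjusted p for 1 member, and limma-voom also called 0. At an unadjusted p under 0.05 there were 3 members, Echs1, Bdh1 and Vnn1, against 15.0% of all genes, and the smallest adjusted p was 0.227. Fold changes lay above 0 for 12 members and below 0 for 27, where 52.7% of all genes lay below 0. The median log2 fold change, HFD over chow, was -0.12 for the members and -0.02 for all genes tested. Scaling by library totals alone moved the median of all genes to 0.13 and that of the members to 0.045, with 15 members below 0. The members' median minus that of all genes was -0.096 with TMM and -0.090 with library totals. It was above 0 without chow 2, at 0.076, and without HFD 2, at 0.088. Groups did not overlap for 1 member, Echs1, against 21.9% of all genes: 0 members were apart and higher, against 11.2%, and 1 was apart and lower, against 10.8%.

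**Figure D1:**
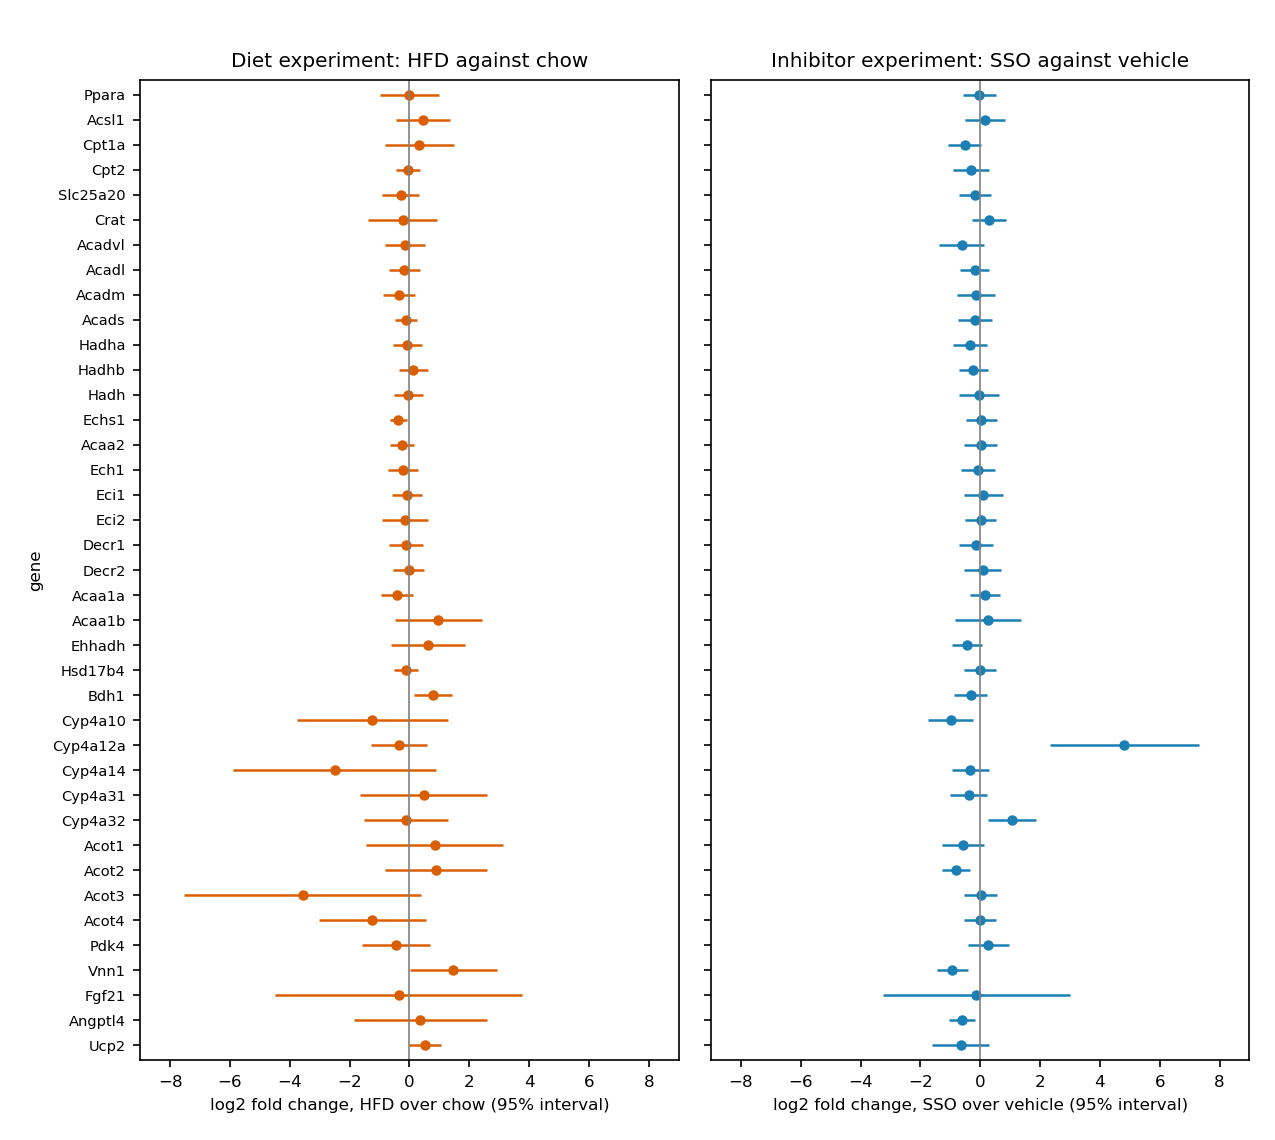
Log2 fold change of each of the 39 genes, HFD over chow on the left and SSO over vehicle on the right, ordered by role. Points are edgeR estimates and lines are 95% intervals; in the diet experiment intervals were wider for the Cyp4a and Acot genes than for the mitochondrial enzymes, and in the inhibitor experiment the largest value was that of Cyp4a12a at 4.81.

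Nearly all members had the same highest liver in each diet group, while the lowest chow liver was shared by fewer. The chow 2 library was the highest of the chow livers for 35 of 39 members, where it was highest for 30.5% of all genes. The lowest chow liver was chow 1 for 28 of 39 members and chow 3 for 11. Among HFD livers, HFD 3 was the highest for 38 of 39 members, against 35.7% of all genes, and HFD 2 the lowest for 35 of 39. Summed over the 39 genes, the level was 6392, 11198 and 6891 CPM in chow 1 to 3 and 6775, 5658 and 10332 CPM in HFD 1 to 3. So each diet group had 1 liver with a summed level far above the other two, and the groups overlapped. The depth and the share of mitochondrially encoded counts were 39.9 M and 7.46% for chow 2 and 32.0 M and 6.60% for HFD 3; the other diet libraries had shares of 6.56% to 9.96%. Hepatocyte markers summed to 85434 CPM in chow 2 and 73610 CPM in HFD 3, the highest of the chow and the lowest of the HFD livers. The 67 other pathway genes tested followed the same livers less sharply, with chow 2 highest for 35 and HFD 3 highest for 41.

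**Figure D2:**
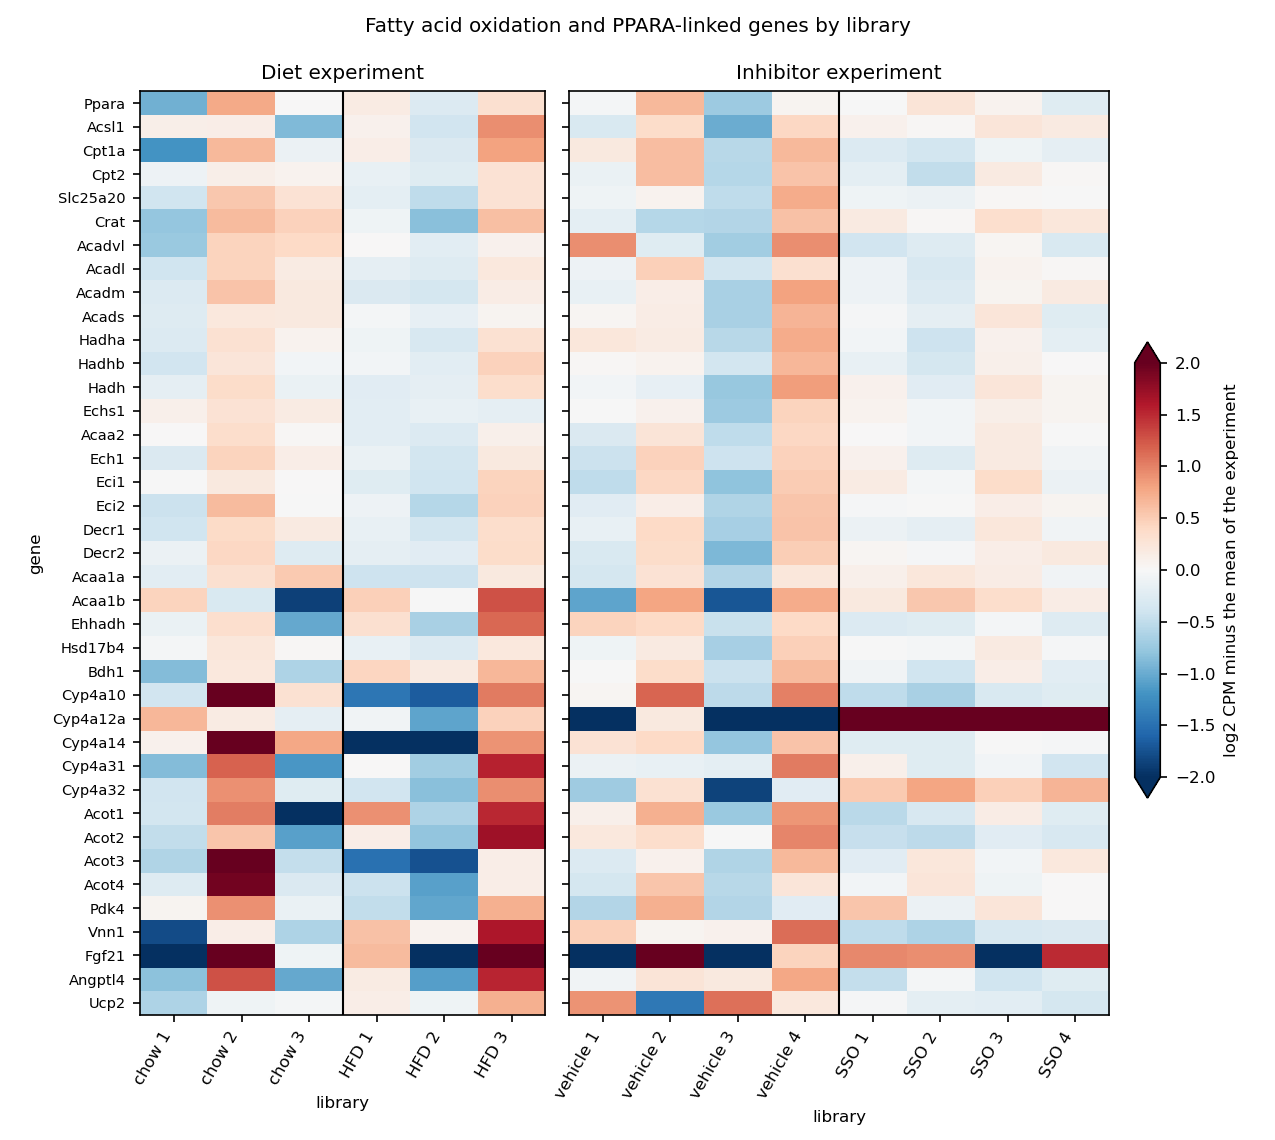
Level of each gene in every library as log2 CPM minus the mean of that gene over the libraries of its experiment, with red above and blue below the mean. In the diet panel the chow 2 and HFD 3 columns are red almost throughout; in the inhibitor panel vehicle 3 is mostly blue, vehicle 4 mostly red, and Cyp4a12a is red in all 4 SSO libraries, at 2.82 to 3.36, while Fgf21 is at -2.12 in SSO 3 and 0.93 to 1.49 in the other SSO libraries.

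The size of this shared shift depended on the role. For the 9 mitochondrial beta-oxidation enzymes the median deviation from the experiment mean was 0.35 log2 units in chow 2 and 0.15 in HFD 3. It was 1.17 and 0.93 for the omega-hydroxylases, and 1.48 and 0.82 for the thioesterases. Over all members the median SD of log2 CPM was 0.56 in chow and 0.45 in HFD livers, against 0.29 and 0.20 for all genes tested.

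**Figure D3:**
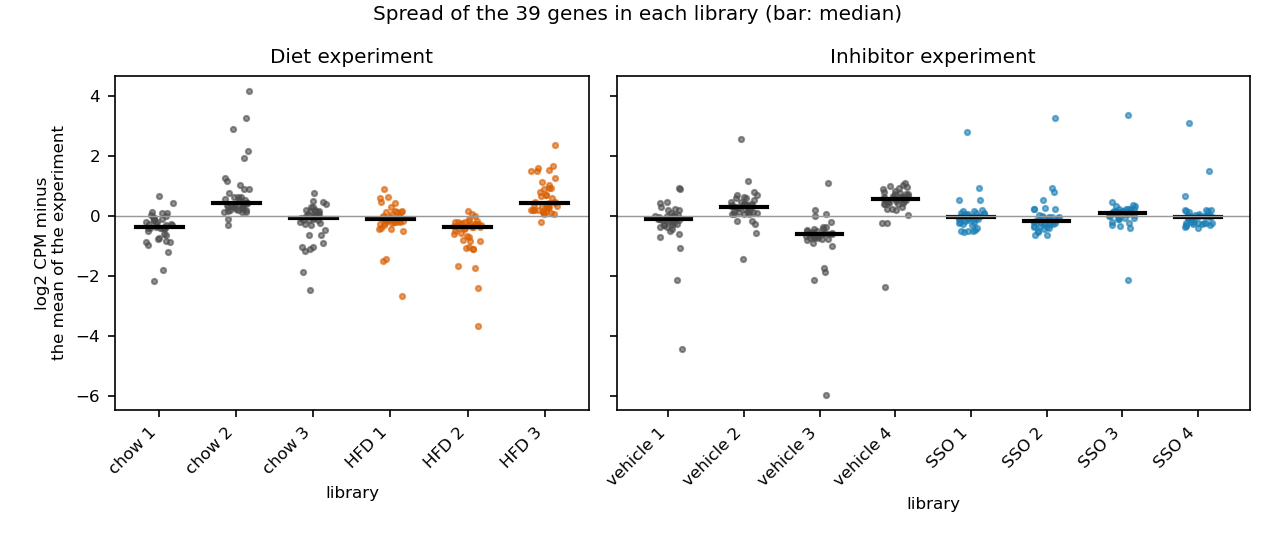
Deviation of the 39 genes from the mean of their experiment in each library, in log2 CPM, with each dot a gene and each bar the median of the library. Medians were 0.44 in chow 2 and 0.45 in HFD 3, and -0.59 in vehicle 3 and 0.57 in vehicle 4, while those of the SSO libraries lay between -0.17 and 0.12.

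Ppara itself was at 23.1, 76.3 and 45.5 CPM in chow 1 to 3 and 50.3, 37.2 and 56.1 CPM in HFD 1 to 3. The HFD values lay inside the chow range, with a log2 fold change of -0.01 ± 0.41 (SE) and a 95% interval of -1.002 to 0.98. With library totals as the scale Ppara was at 0.15, where the median over all genes went from -0.02 to 0.13.

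Among the genes of activation and the carnitine shuttle, Cpt1a encodes the outer-membrane carnitine palmitoyltransferase that gates entry of long chains into mitochondria. Cpt1a stood at 176, 637 and 374 CPM in chow and 446, 333 and 711 CPM in HFD livers. The groups overlapped, with a log2 fold change of 0.33 ± 0.48 (SE) and an adjusted p of 0.815. The other 4 genes of this role had log2 fold changes of -0.30 to 0.45: Slc25a20, the carnitine-acylcarnitine carrier, Crat, the carnitine acetyltransferase, and Cpt2, the inner-membrane partner of Cpt1a, were below 0, and Acsl1, a long-chain acyl-CoA synthetase, was above 0.

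The mitochondrial beta-oxidation enzymes were the most precisely measured role, and all 9 had 95% intervals inside a 2-fold change in either direction, as 60.0% of all genes did. Of these enzymes 8 had log2 fold changes below 0, and their median was -0.16; scaled by library totals alone, 4 were below 0. Acadm, the medium-chain acyl-CoA dehydrogenase, was at 268, 484 and 372 CPM in chow and 266, 253 and 359 CPM in HFD livers, overlapping ranges with a log2 fold change of -0.35 ± 0.24 (SE) and an adjusted p of 0.535. Echs1, the short-chain enoyl-CoA hydratase, was at 232, 262 and 240 CPM in chow and 185, 194 and 190 CPM in HFD livers. Each HFD value of Echs1 lay below each chow value, and the spread in both groups was small. Its log2 fold change was -0.37 ± 0.13 (SE), with an adjusted p of 0.227 that did not pass the threshold. The remaining 7 were Acadvl, Acadl and Acads, which take the very long, long and short chains, Hadha and Hadhb, the subunits of the trifunctional protein, Hadh, the short-chain hydroxyacyl-CoA dehydrogenase, and Acaa2, with values between -0.25 and 0.13.

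The 5 auxiliary enzymes move or reduce double bonds so that unsaturated chains can enter the cycle. Decr1 in mitochondria and Decr2 in peroxisomes are the dienoyl-CoA reductases, and Eci1, Eci2 and Ech1 are isomerases. All 5 had log2 fold changes below 0, from -0.21 for Ech1 to -0.03 for Decr2, but 1 of 5 when scaled by library totals alone. All 5 intervals lay inside a 2-fold change.

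None of the 4 peroxisomal enzymes passed the test, and 2 estimates were above and 2 below 0. Ehhadh, the bifunctional enzyme of the PPARA-induced peroxisomal route, was at 217, 304 and 118 CPM in chow and 299, 152 and 531 CPM in HFD livers, which overlapped. Its log2 fold change was 0.62 ± 0.51 (SE), with an adjusted p of 0.641. Acaa1b, a peroxisomal thiolase, was at 445, 266 and 89.7 CPM in chow and 454, 326 and 788 CPM in HFD livers, with a log2 fold change of 0.97 ± 0.60 (SE) and an adjusted p of 0.522. Acaa1b was one of 4 members, with Acaa1a, Cyp4a12a and Ucp2, for which chow 2 was not the highest chow liver. Its close copy Acaa1a and the multifunctional enzyme Hsd17b4 had values of -0.42 and -0.13.

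Bdh1 converts acetoacetate to 3-hydroxybutyrate, the last step in making the main circulating ketone body. Bdh1 was at 134, 284 and 159 CPM in chow and 331, 277 and 386 CPM in HFD livers. Chow 2 lay just above HFD 2, and all other chow values lay below all HFD values. Its estimate of 0.78 ± 0.28 (SE) on the log2 scale had a 95% interval of 0.14 to 1.43 and an adjusted p of 0.238. Without chow 2 it was 1.18, with an adjusted p of 0.0468, which passed the threshold, in a fit that called 1.14% of all genes. Chow 2 held the highest chow value of Bdh1, so leaving it out raises the estimate by construction. With any other diet library left out, no member was called. Annotated exons of another gene on the opposite strand cover 13.7% of the exon length of Bdh1, and strand use in counting is not given.

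Cyp4a10 and Cyp4a14, omega-hydroxylases of medium and long chains, differed widely among livers of one diet. Cyp4a10 was at 135, 791 and 218 CPM in chow and 65.4, 56.0 and 362 CPM in HFD livers. Cyp4a14 was at 172, 1573 and 278 CPM in chow and 25.7, 30.5 and 303 CPM in HFD livers, a ratio of highest to lowest of 9.14 in chow and 11.8 in HFD. For both genes chow 2 and HFD 3 stood above the other livers of their group, and the groups overlapped because HFD 3 exceeded 2 chow livers. The log2 fold changes were -1.24 ± 1.02 (SE) for Cyp4a10 and -2.49 ± 1.37 (SE) for Cyp4a14, with adjusted p-values of 0.642 and 0.480. The interval for Cyp4a14, -5.89 to 0.90, holds both a large fall and a rise. Both estimates rested on chow 2, and without that library they were -0.13 and -0.91, with adjusted p-values of 0.968 and 0.781. Cyp4a12a, the male-predominant member in mouse liver, was at 213, 151 and 118 CPM in chow and 128, 64.5 and 184 CPM in HFD livers, with a log2 fold change of -0.35 ± 0.39 (SE).

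Of the thioesterases, Acot3 was close to silent in 2 chow livers and high in the third, at 0.87, 25.3 and 0.95 CPM in chow and 0.44, 0.36 and 1.48 CPM in HFD livers. Its log2 fold change of -3.57 ± 1.60 (SE), with an adjusted p of 0.389, rested on chow 2 and was -0.26 without that library. Acot4 followed the same livers, at 23.5, 107 and 23.0 CPM in chow and 20.7, 13.2 and 30.6 CPM in HFD livers, with a log2 fold change of -1.25 ± 0.72 (SE), which was -0.12 without chow 2. Acot1 and Acot2 had values above 0, at 0.85 ± 0.92 and 0.89 ± 0.71 (SE). None of the 4 passed the test.

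Among the other genes linked to PPARA, Vnn1, a pantetheinase, was at 9.04, 34.2 and 20.4 CPM in chow and 47.1, 32.8 and 96.1 CPM in HFD livers. Its groups overlapped only in that chow 2 exceeded HFD 2, and the log2 fold change was 1.47 ± 0.60 (SE), with an adjusted p of 0.330. Angptl4, an inhibitor of lipoprotein lipase, was at 30.7, 131 and 26.7 CPM in chow and 60.7, 25.2 and 156 CPM in HFD livers, so that 1 liver of each diet stood far above the others. The fitted value was 0.36 ± 0.90 (SE). Pdk4, the kinase that switches off pyruvate dehydrogenase, was low, at 7.55, 13.8 and 6.61 CPM in chow and 5.16, 3.51 and 11.96 CPM in HFD livers, with a log2 fold change of -0.44 ± 0.49 (SE). Fgf21, a hormone secreted by the fasted liver, was at 0.10, 5.26 and 0.61 CPM in chow and 1.05, 0 and 3.604 CPM in HFD livers, again highest in chow 2 and HFD 3. Ucp2, the mitochondrial uncoupling protein 2, had a log2 fold change of 0.52 ± 0.23 (SE), with an adjusted p of 0.343.

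**Figure D4:**
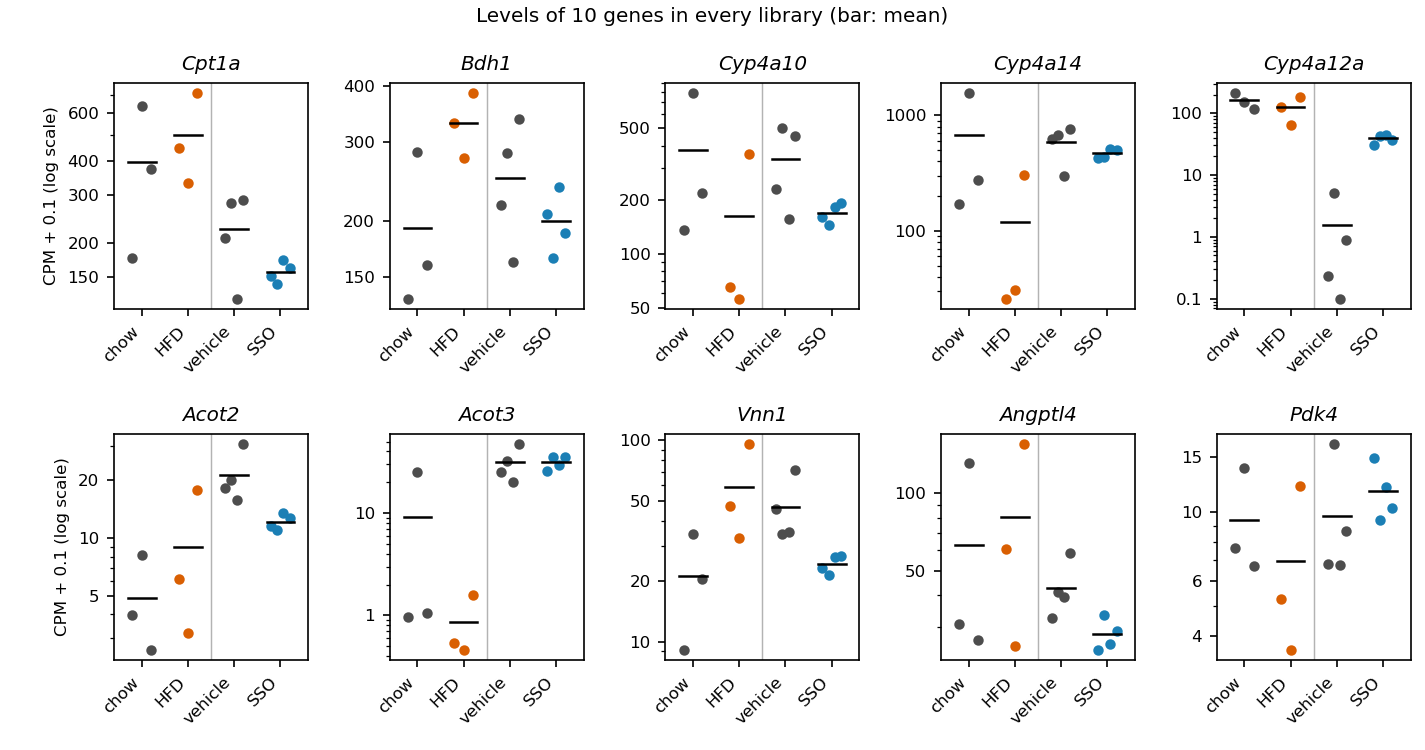
CPM plus 0.1 of 10 genes in every library on a log scale, with each dot a library and each bar a group mean, chow and HFD left and vehicle and SSO right of the grey line. Cyp4a12a was at 0 to 4.95 CPM in vehicle libraries and 30.8 to 44.9 CPM in SSO libraries; for Acot2 and Vnn1 all SSO dots lie below all vehicle dots.

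Of the 67 other pathway genes tested in the diet experiment, 2 were called, both higher, against 2.32% of all genes. The median log2 fold change of the 67 genes was -0.12. Slc16a1, the monocarboxylate transporter that carries lactate and ketone bodies, rose from 84.2, 85.5 and 85.0 CPM in chow to 145, 118 and 163 CPM in HFD livers, with no overlap. On the log2 scale it rose by 0.74 ± 0.15 (SE), with an adjusted p of 0.0381. Lpl, the lipoprotein lipase that frees fatty acids from circulating triglyceride, was at 43.4, 30.8 and 29.6 CPM in chow and 76.0, 67.4 and 54.6 CPM in HFD livers, a rise of 0.93 ± 0.19 (SE) with an adjusted p of 0.0392. Neither gene was called when chow 2, chow 3, HFD 1 or HFD 3 was left out, and Lpl was not called without HFD 2. Ppargc1a, a coactivator of PPARA, had a log2 fold change of -1.01 ± 0.26 (SE) with an adjusted p of 0.0943. Of 13 clock genes listed, 4 were called lower in HFD livers, Per3, Cry2, Dbp and Tef, against 0.718% of all genes. None of them was called higher, against 1.60%. Groups did not overlap for 8 of these clock genes, against 21.9% of all genes, with 6 lower and 2 higher in HFD. The 2 higher were Arntl and Clock, which did not pass the test. Arntl ranged over 9.90 to 17.1 CPM on chow and 22.2 to 28.0 CPM on HFD, and Clock over 38.8 to 50.7 and 54.7 to 59.0 CPM. The part of the clock genes in the members' values was not tested.

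The inhibitor experiment asked how SSO given before surgery alters the regenerating liver. Fatty acid uptake through CD36 was not measured, and the RNA level of Cd36 does not show whether uptake was blocked. Cd36, which encodes the fatty acid receptor, was at 101, 72.4, 77.9 and 96.3 CPM in vehicle and 35.5, 32.2, 41.1 and 34.5 CPM in SSO libraries. Cd36 fell by 1.28 ± 0.16 (SE) on the log2 scale, with an adjusted p of 0.0196 in edgeR's test. Of the 39 members, 0 were called higher and 0 lower, against 0.450% of the 15788 genes tested, 0.317% higher and 0.133% lower. At an unadjusted p under 0.05 there were 6 members, Cyp4a12a, Cyp4a32, Vnn1, Acot2, Angptl4 and Cyp4a10, against 20.5% of all genes, and the smallest adjusted p was 0.106. DESeq2, which gave no adjusted p for 1 member, called 3 of them, or 7.89% of those with an adjusted p, Cyp4a12a higher and Vnn1 and Acot2 lower, where it called 8.21% of all genes. In limma-voom 1 member was called, Cyp4a12a, against 0.431% of all genes. Cyp4a12a reached the filter's count of 10 in only 2 vehicle but all 4 SSO libraries. It thus entered each test through the group in which it is high. Fold changes were above 0 for 13 members and below 0 for 26, where 53.0% of all genes were below 0. The median log2 fold change, SSO over vehicle, was -0.14 for the members and -0.04 for all genes. Scaling by library totals alone gave -0.24 and -0.20, with 31 members below 0. Without vehicle 4 the members' median was above 0, at 0.072.

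Groups did not overlap for 4 members, Cyp4a12a and Cyp4a32 higher and Acot2 and Vnn1 lower in SSO, against 11.8% of all genes, 6.14% higher and 5.62% lower. The 95% interval lay inside a 2-fold change for 26 of 39 members, against 47.5% of all genes. SSO libraries were alike and vehicle libraries were not: the median SD of log2 CPM over members was 0.18 in SSO and 0.56 in vehicle, against 0.25 and 0.47 for all genes. Vehicle 3 was the lowest vehicle library for 34 of 39 members, against 22.6% of all genes, and vehicle 4 the highest for 25, against 20.8%. The summed level of the members was 6365, 9022, 4411 and 10328 CPM in vehicle 1 to 4 and 6832, 6658, 7674 and 6943 CPM in SSO 1 to 4. These levels depend on TMM scaling. As a share of unscaled library counts, the members made up 0.765%, 0.754%, 0.546% and 1.01% in vehicle 1 to 4. In SSO libraries this share was 0.639% to 0.727%. By share, vehicle 3 alone lay below the SSO libraries, and vehicle 1 lay above vehicle 2. Vehicle 1 and 3, the 2 vehicle libraries with the lowest TMM-scaled sums, were also those with high monocyte markers. Without these 2 libraries, a choice made after seeing the data, the median of the members was -0.47 and 2 members were called lower, Cpt1a at -0.86 with an adjusted p of 0.0467 and Cyp4a10 at -1.504 with an adjusted p of 0.00485. In that fit the median of all genes was -0.01 and 0.371% of 16692 genes were called. Leaving out the vehicle libraries with the lowest TMM-scaled sums of the members raises the vehicle mean of that sum by construction. The fit therefore cannot show whether the members fell under SSO. Ppara was at -0.34, Acadm at -0.53, Ehhadh at -0.60, Bdh1 at -0.64, Cyp4a14 at -0.61 and Angptl4 at -0.82 in the same fit, and none of these 6 passed the test. The part of other cell types in the members' values was not tested further.

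Ppara was at 25.4, 40.9, 15.8 and 27.1 CPM in vehicle and 25.9, 31.3, 27.5 and 22.0 CPM in SSO libraries. The SSO values lay inside the vehicle range, with a log2 fold change of -0.03 ± 0.25 (SE) and a 95% interval of -0.59 to 0.53, and the sign turned in limma-voom.

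Cpt1a was at 209, 282, 125 and 288 CPM in vehicle and 151, 142, 174 and 162 CPM in SSO libraries. All SSO values lay below 3 vehicle libraries and above vehicle 3, giving a log2 fold change of -0.53 ± 0.25 (SE) with an adjusted p of 0.270. The other activation and shuttle genes were between -0.30 for Cpt2 and 0.30 for Crat.

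For mitochondrial beta-oxidation, 7 of 9 enzymes were below 0, or 6 in limma-voom and 9 when scaled by library totals alone, and 8 of 9 intervals lay inside a 2-fold change, the exception being Acadvl at -0.62 ± 0.34 (SE). Exons of a gene on the other strand cover 42.9% of the exon length of Acadvl, which makes its level uncertain. Acadm was at 251, 303, 177 and 482 CPM in vehicle and 259, 229, 288 and 314 CPM in SSO libraries, an overlap that left a log2 fold change of -0.15 ± 0.29 (SE). Echs1, the enzyme with separated groups in the diet experiment, had a log2 fold change of 0.04 ± 0.23 (SE) here. The 5 auxiliary enzymes lay between -0.14 and 0.10, 2 of them below 0, or 4 when scaled by library totals alone, all with intervals inside a 2-fold change.

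Ehhadh was at 355, 344, 191 and 345 CPM in vehicle and 215, 221, 253 and 219 CPM in SSO libraries. Vehicle 3 lay below all SSO libraries and the other 3 vehicle libraries above them. The log2 fold change was -0.44 ± 0.22 (SE), with an adjusted p of 0.289. Acaa1b ranged from 204 to 1158 CPM in vehicle and from 740 to 972 CPM in SSO libraries, with a log2 fold change of 0.25 ± 0.50 (SE). Bdh1 was at 217, 283, 162 and 338 CPM in vehicle and 207, 165, 238 and 188 CPM in SSO libraries. The ranges of Bdh1 overlapped, and its log2 fold change was -0.32 ± 0.24 (SE). Acaa1a and Hsd17b4 had values of 0.16 and -0.01.

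Within the Cyp4a family the directions were mixed. Cyp4a12a had 4, 109, 0 and 23 counts in vehicle and 829, 1168, 1258 and 1040 counts in SSO libraries, or 0.13, 4.95, 0 and 0.79 CPM and 30.8, 42.5, 44.9 and 37.2 CPM. Every SSO library exceeded every vehicle library of Cyp4a12a, with means of 38.8 ± 6.25 and 1.47 ± 2.35 CPM (SD, n = 4). The fitted log2 fold change was 4.81 ± 1.10 (SE), with a 95% interval of 2.32 to 7.30 and an adjusted p of 0.106 in edgeR, 0.0184 in DESeq2 and 0.0314 in limma-voom. Only 2 vehicle libraries but all 4 SSO libraries reached the count of 10 that the filter asks for, so Cyp4a12a entered the test through the group in which it is high, and the size of the fold rests on vehicle counts at or near 0 in part. With a library left out, the estimate ranged from 4.37 to 7.05 and its adjusted p in edgeR from 0.00324, without vehicle 2, to 0.285, without SSO 4. The fit without vehicle 2 called 16.2% of all genes and was the only 1 of the 8 in which Cyp4a12a passed. Without vehicle 1 and 3 it was 3.81, with an adjusted p of 0.116. Cyp4a12a lies at chr4:115299046-115332815 and shares 35.8% of its 100-base windows with its neighbour Cyp4a12b. Cyp4a12b, added after its values were seen, was at 0 to 0.82 CPM in vehicle and 0.52 to 1.497 CPM in SSO libraries, whereas in the diet livers, which express Y-linked genes, Cyp4a12a was at 64.5 to 213 and Cyp4a12b at 43.8 to 125 CPM.

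Cyp4a32 was at 9.97, 20.2, 4.49 and 14.0 CPM in vehicle and 23.6, 28.3, 22.7 and 26.2 CPM in SSO libraries, with no overlap. The log2 fold change was 1.05 ± 0.36 (SE), with an adjusted p of 0.155. With a library left out, the estimate for Cyp4a32 ranged from 0.78 to 1.41 and its adjusted p from 0.0169, without vehicle 2, to 0.373, without vehicle 1, and it was 0.57 with an adjusted p of 0.260 without vehicle 1 and 3. Cyp4a10 was at 230, 506, 156 and 456 CPM in vehicle and 159, 145, 183 and 191 CPM in SSO libraries. Vehicle 3 alone fell into the SSO range, and the log2 fold change was -0.99 ± 0.34 (SE), with an adjusted p of 0.154. Cyp4a14 was at 625, 676, 300 and 759 CPM in vehicle and 432, 433, 508 and 503 CPM in SSO libraries, with the same library low, and had a log2 fold change of -0.33 ± 0.28 (SE), which did not pass the test. Cyp4a31 was at -0.39 ± 0.28 (SE).

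Acot2, the mitochondrial thioesterase, was at 18.1, 20.1, 15.7 and 30.8 CPM in vehicle and 11.4, 10.9, 13.4 and 12.6 CPM in SSO libraries, with no overlap. The log2 fold change of Acot2 was -0.81 ± 0.22 (SE), with an adjusted p of 0.111 in edgeR and 0.0279 in DESeq2. Its adjusted p in edgeR was 0.0328 without vehicle 2 and 0.121 to 0.286 with any other library left out, and without vehicle 1 and 3 the estimate was -1.08 with an adjusted p of 0.0657. Acot1, its cytosolic and 95.2% identical neighbour, was at 18.8, 28.7, 10.5 and 32.5 CPM in vehicle and 11.999, 13.9, 19.4 and 14.8 CPM in SSO libraries, which overlapped, and had a log2 fold change of -0.59 ± 0.32 (SE). Acot3 and Acot4, peroxisomal thioesterases whose sequences above differ more, had values of 0.01 ± 0.25 and -0.01 ± 0.23 (SE), with 95% intervals of -0.54 to 0.56 and -0.53 to 0.51. Whether Acot2 differed from its neighbours was not tested.

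Vnn1 was at 45.7, 34.1, 34.8 and 71.3 CPM in vehicle and 23.1, 21.3, 26.2 and 26.7 CPM in SSO libraries, with no overlap. For Vnn1 the log2 fold change was -0.93 ± 0.23 (SE), with an adjusted p of 0.106 in edgeR and 0.0150 in DESeq2. Its adjusted p in edgeR was 0.0120 without vehicle 2 and 0.0789 to 0.286 with any other library left out, and without vehicle 1 and 3 the estimate was -1.12 with an adjusted p of 0.0913. Angptl4 was at 32.4, 40.9, 39.3 and 58.2 CPM in vehicle and 24.4, 33.3, 25.8 and 29.0 CPM in SSO libraries, where only SSO 2 reached the vehicle range. Its log2 fold change was -0.60 ± 0.19 (SE), with an adjusted p of 0.139. Pdk4 was at 6.70, 16.4, 6.67 and 8.57 CPM in vehicle and 14.8, 9.28, 11.9 and 10.2 CPM in SSO libraries, overlapping, with a log2 fold change of 0.27 ± 0.31 (SE), which was -0.11 without vehicle 1 and 3. Fgf21 was at 0, 1.72, 0 and 0.34 CPM in vehicle and 0.52, 0.51, 0 and 0.79 CPM in SSO libraries, too low for a direction. Ucp2 was at 104, 20.7, 120 and 64.8 CPM in vehicle and 55.2, 49.0, 48.5 and 43.6 CPM in SSO libraries, highest in the 2 vehicle libraries with high monocyte markers. Its log2 fold change was -0.66 ± 0.42 (SE), and 0.19 without those 2 libraries.

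Among the 67 other pathway genes tested in the inhibitor experiment, 1 was called lower, Cd36, and 1 higher, against 0.133% and 0.317% of all genes. The median log2 fold change of the 67 genes was 0.09. The gene called higher was Acss2, the cytosolic enzyme that makes acetyl-CoA from acetate, at 74.4, 185, 53.8 and 118 CPM in vehicle and 556, 745, 535 and 593 CPM in SSO libraries. Acss2 rose by 2.49 ± 0.36 (SE) on the log2 scale, with an adjusted p of 0.0269 in edgeR. Without vehicle 1 and 3, Cd36 was at -1.24 with an adjusted p of 0.0113 and Acss2 at 2.01 with an adjusted p of 0.00570. Neither Cd36 nor Acss2 was called when vehicle 1 or any SSO library was left out, and those fits called 0 of all genes in edgeR, with 2068 to 2658 genes at an unadjusted p under 0.05. Large differences that missed the threshold included those of Lpin1, a phosphatidate phosphatase and coactivator of PPARA, at 2.74 ± 0.51 (SE), Acacb, which makes the malonyl-CoA that inhibits Cpt1a, at 2.53 ± 0.52 (SE), and Plin2, a lipid droplet coat protein, at -1.09 ± 0.24 (SE). Their adjusted p-values were 0.0650, 0.0793 and 0.0866. Lpin1 was at 10.1, 41.8, 11.2 and 27.6 CPM in vehicle 1 to 4 and 100 to 249 CPM in SSO libraries. Plin2 was at 584, 321, 481 and 327 CPM in vehicle and 180 to 226 CPM in SSO libraries. Lpl, called higher under HFD, was at -1.59 here and was not called. Its levels were 170, 15.0, 228 and 34.4 CPM in vehicle 1 to 4 and 30.9 to 43.5 CPM in SSO libraries.

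Set side by side, 18 members had the same sign of change under HFD and under SSO and 21 had opposite signs, where 41.0% of 14905 genes tested in both had the same sign. The experiments share no control library and differ in time after surgery, at 40 and 48 hours. Their sex transcripts also differ, with Y-linked genes detected only in diet libraries and Xist high only in inhibitor libraries. Vnn1 was at 1.47 under HFD and -0.93 under SSO, Bdh1 at 0.78 and -0.32, Acot2 at 0.89 and -0.81, and Cyp4a10 at -1.24, or -0.13 without chow 2, and -0.99, each on the log2 scale. Whether these effects differed between the experiments was not tested.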

How the data were processed

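RNA-seq counts were analysed from 6 diet and 8 inhibitor libraries of mouse liver. The authors deposited raw, whole-number read counts for each Ensembl gene. HISAT2 2.2.1, featureCounts 2.0.2, Trim Galore 0.6.1, DESeq2 and GRCm38 (mm10) stand in the submitters' processing notes, and per the labels' protocols RNA was polyT-selected. How strand and reads that fit several genes were handled, and which annotation release was counted, is not given in the sources used here. Columns were mapped to groups by header name. A table of sorted macrophages, with 12 columns, was not used here. Of 55487 identifiers, 55141 matched a symbol in GENCODE M21.

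Each table was fitted alone with edgeR 4.0.16 in R 4.3.3 (quasi-likelihood test, TMM scaling, filterByExpr), with Benjamini-Hochberg adjustment over all tested genes and calls at an adjusted p under 0.05. DESeq2 1.42.0, limma-voom (limma 3.58.1), scaling by library size, no filter, no mitochondrial genes, a replicate block and leaving out each library were alternatives. Libraries of every group differed by more than sampling noise and were each counted as 1 replicate. SEs of log2 fold changes are the estimate divided by the root of the quasi-F statistic. The fit was tested on simulated data. Coding sequences were aligned with MAFFT 7.526.

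The members and lists were chosen with earlier results of these data known. Values in every library were given for called members, the 6 largest fold changes of each experiment and 11 fixed members (Ppara, Cpt1a, Acadm, Ehhadh, Bdh1, Cyp4a10, Cyp4a12a, Cyp4a14, Pdk4, Fgf21 and Angptl4); pathway genes were named where called. Echs1, Acot1, Ppargc1a, Lpin1, Acacb, Plin2, Arntl and Clock were named outside this rule, after their values were seen. Cell type lists covered hepatocytes, Kupffer cells, recruited monocytes, neutrophils, sinusoidal endothelium, stellate cells, cholangiocytes, adipocytes, skeletal muscle, lymphocytes and erythroid cells. No gene of these lists was called in either experiment; clock genes and sex-specific transcripts were also listed.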

Additional observations from a re-analysis of the deposited data

Results flagged for a closer look

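In 78 groups of 4 libraries, 39 genes in vehicle and 39 in SSO, the highest or lowest library was checked against its group on the log2 scale, and 5 stood apart; chance alone flags about 1 in 20 groups. Ehhadh was at 190.9 CPM in vehicle 3, with the other vehicle libraries at 344 to 355 CPM. Cyp4a31 was at 46.2 CPM in vehicle 4, with the others at 19.6 to 20.6 CPM. In SSO 3, Ehhadh was at 253 CPM against 215 to 221 CPM in the other SSO libraries, and Hsd17b4 was at 320 CPM against 274 to 281 CPM. Fgf21 had a level of 0 in SSO 3 and 0.51 to 0.79 CPM in the other SSO libraries. Groups of 3 in the diet experiment were not checked in this way.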

How the results depend on the processing

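In the diet experiment the count of all genes called, 361, was 926 in DESeq2, 672 without a filter on low counts and 206 with the replicate block, and 86 to 681 with a library left out. Called pathway genes, 2, became 8 in DESeq2, 5 without a filter and 1 with the block, and 0 to 5 with a library left out. Members called higher stayed at 0 except without chow 2, where Bdh1 was called, a range of 0 to 1. Ppara turned from -0.01 to 0.15 with library-size scaling, 0.13 in limma-voom and 0.14 with the block, and Fgf21 from -0.37 to 0.78 with the block. With a library left out, Ppara ranged from -0.34 to 0.48, Fgf21 from -1.91 to 2.13, Cpt1a from -0.023 to 0.85 and Angptl4 from -0.55 to 1.49.

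In the inhibitor experiment the 71 genes called became 1218 in DESeq2, 37 with library-size scaling, 205 without a filter and 47 with the replicate block, and 0 to 2646 with a library left out, the 2646 without vehicle 2; the cause was not tested. Members called were 1 higher and 2 lower in DESeq2, 1 lower (Vnn1) without a filter and 1 higher in limma-voom, and with a library left out 0 to 2 higher and 0 to 3 lower (Acot2, Vnn1 and Ucp2 without vehicle 2). The member called higher in DESeq2 and limma-voom was Cyp4a12a, which passed the count filter through the SSO group. The members' median, -0.14, was -0.24 with library-size scaling and -0.32 to 0.072 with a library left out. Called pathway genes were 8 in DESeq2, 4 with library-size scaling and 0 to 17 with a library left out. Ppara turned to 0.060 in limma-voom and 0.031 with the block, and Fgf21 to 1.41 and 0.96. With a library left out, Ppara ranged from -0.21 to 0.23, Fgf21 from -0.57 to 2.00 and Acadm from -0.34 to 0.17. Without vehicle 1 and 3, chosen after seeing the data, 2 members were called lower, the median was -0.47, Pdk4 was at -0.11 and Ucp2 at 0.19. These vehicle libraries had the lowest TMM-scaled sums of the members, so the lower median follows in part from the choice.

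Leaving out the mitochondrial genes moved none of these counts by over 1.5 times. Same-numbered libraries did not deviate together, with correlations of -0.11 to 0.02 in the diet and -0.07 to 0.03 in the inhibitor experiment. Such correlations cannot exclude a pairing by number, and the main fits used none. The block called 0 members in both experiments. With 3 libraries a group, 0 of the 9 Cyp4a and Acot genes had a 95% interval inside a 2-fold change in the diet experiment.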
